A study of Neogale vison with 6 samples.

Results

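The RNA levels of amino acid transporter genes were compared between Mv1Lu cells, an established epithelial line from mink lung, after cholesterol depletion (CD) and without it. The genes were chosen by symbol: every row of the count table whose symbol begins with SLC1A, SLC3A, SLC6A, SLC7A, SLC15A, SLC36A, SLC38A or SLC43A and a number was taken, except SLC38A9. This gave 54 genes of 24526 in the table, some of which carry other substrates or, like SLC7A6OS, are no transporter. The RNA-seq data comprised 3 control libraries, labelled as untreated, and 3 CD libraries. For CD the cells had been kept for 16 h with 50 μM lovastatin, an inhibitor of HMG-CoA reductase, and 50 μM mevalonate, the product of that enzyme, in medium with 10% lipoprotein-deficient serum (LPDS). The statin, the mevalonate and the change of serum cannot be told apart in this design. Nothing in the labels says that the libraries of a group came from separate cultures, so the p-values measure the spread between these libraries, which may be technical.

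Amino acid transporters are grouped into systems by what they carry and by the ions they use. Most SLC7 proteins are light chains that reach the plasma membrane only when bound to a heavy chain of the SLC3 family, whereas SLC1, SLC6, SLC36 and SLC38 carriers are driven by sodium, chloride or proton gradients. Several members sit on lysosomes instead. Cells in culture use these carriers to take up glutamine, leucine and other amino acids, whose supply is sensed by mTOR complex 1, and many of the genes are known targets of ATF4, a transcription factor that responds to amino acid shortage.

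The reads counted on genes numbered between 13473820 and 18633764 per library, so 1 read stood for 0.0551 to 0.0723 CPM. CPM are the reads of a gene scaled to a common library size (TMM), the scale of all levels below. They are not corrected for gene length, so levels are compared for one gene between libraries and not between genes. Control libraries lay close together (Spearman correlation across genes of 0.995 to 0.996), and CD libraries less so (0.971 to 0.991), with CD replicates 1 and 3 farthest apart. The label of an epithelial line was checked with 8 markers, of which 6 were found. KRT19 had 936 CPM on average in control libraries and 458 CPM in CD libraries, and CLDN4 rose from 0.603 CPM to 7.03 CPM, whereas EPCAM and CDH1, which define epithelium, stayed at or under 0.390 CPM on average in either group. The other markers in the list, VIM (4070 CPM and 4152 CPM) and CDH2 (119 CPM and 198 CPM), are common in mesenchymal and cultured cells as well. The sum of all 6 epithelial markers, most of it VIM, was 4967 to 5293 CPM in control and 4292 to 5505 CPM in CD. The sum of 6 fibroblast markers was 303 to 379 CPM in control and 179 to 229 CPM in CD, and that of 4 endothelial markers, nearly all of it TEK, 206 to 221 CPM and 74.9 to 123 CPM. The sum of 3 leukocyte markers, mostly CD68, was 5.57 to 6.67 CPM in control and 21.1 to 26.0 CPM in CD. PTPRC, PECAM1 and CDH5, which define leukocytes and endothelium, had no counts in control and at most 0.232 CPM on average in CD. The part of these markers in the results below was not tested.

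Of the 54 transporter genes, 26 had enough reads to be tested and 28 did not. Of the 26, 13 were lower and 3 were higher in CD at an adjusted p under 0.05 (quasi-likelihood test of edgeR, Benjamini-Hochberg over 12148 genes), and 10 were not called. Over all genes tested, 22.9% were called lower and 24.8% higher, or 47.7% in either direction, beside 50.0% lower and 11.5% higher among the 26 genes. Without SLC6A2, SLC6A6 and SLC6A11, which carry other substrates, and SLC7A6OS, 22 genes were left, of which 11 were lower and 1, SLC38A2, was higher. These 22 still hold the heavy chains and members whose substrate is little known. A call with at least a 2-fold change was made for 11 of the 26 in the downward direction, against 9.64% of all genes, and for 1 in the upward direction, against 10.6%. The upward one was SLC6A2, which passed the filter through the CD libraries alone, and the downward ones include SLC7A7 and SLC6A11, which passed it through the control libraries alone. The 26 genes had a median log2 fold change of -0.47, and all genes tested one of 0.06. The groups did not overlap for 17 of the 26 genes and for 58% of all genes. The filter shaped these numbers. Of the 26 genes, 21 passed it in both groups, 4 through the control libraries alone (2 of them called lower) and 1 through the CD libraries alone (called higher), and the last 5 are low genes whose counts could pass through 1 group only where that group was high. In bulk RNA, fewer cells that express a gene cannot be told apart from less RNA of it per cell.

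**Figure D1:**
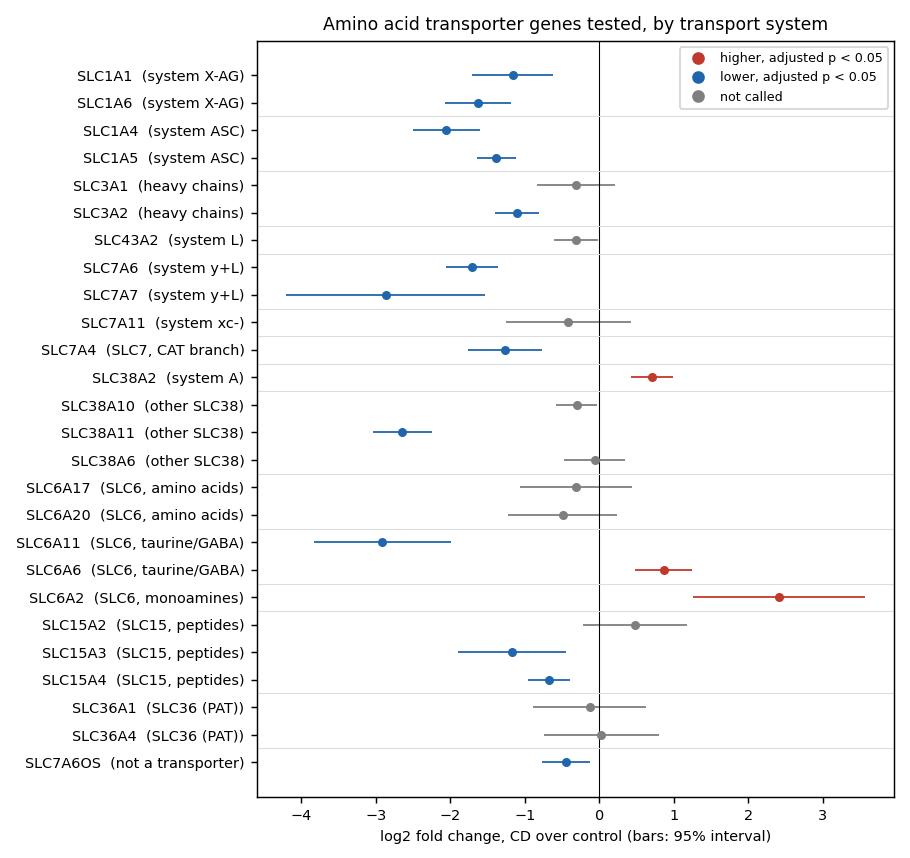
The x axis gives the log2 fold change of CD over control and each line of the y axis 1 of the 26 transporter genes tested, grouped by transport system. Points are edgeR estimates and bars their 95% intervals, and the blue points of the 13 lower genes lie between -0.44 and -2.91, whereas the red points of the 3 higher genes belong to SLC38A2, SLC6A6 and SLC6A2.

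The neutral amino acid exchangers of system ASC and the light and heavy chains of system y+L fell together. SLC1A5 (ASCT2), which exchanges glutamine, serine and other neutral amino acids for one another with sodium, was at 230 CPM, 229 CPM and 261 CPM in control replicates 1, 2 and 3 and at 83.6 CPM, 97.2 CPM and 96.2 CPM in CD replicates 1, 2 and 3. Its groups were far apart, with even the highest CD library far below the lowest control library (log2 fold change -1.38, standard error 0.12, adjusted p = 1.12e-05, edgeR). SLC1A4 (ASCT1), its relative for alanine, serine, cysteine and threonine, was at 11.3 CPM, 9.18 CPM and 11.4 CPM in control and at 2.27 CPM, 2.88 CPM and 2.52 CPM in CD. It was thus reduced 4.15-fold (log2 fold change -2.05, standard error 0.20, adjusted p = 2.90e-05, edgeR), again without overlap. Within each library the log2 ratio of SLC1A4 to SLC1A5 reads, which does not depend on the scaling of the libraries, was -4.50 ± 0.148 in control and -5.18 ± 0.0923 in CD (SD, n = 3 each), a difference of -0.68. All CD ratios were under all control ratios (two-sided exact permutation test, p = 0.1, or 0.15 when adjusted over the 3 ratios examined). With 3 libraries in each group this test cannot give a p below 0.1.

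SLC3A2 (4F2hc, also CD98), the heavy chain shared by the light chains of systems L, y+L and xc-, was at 435 CPM, 409 CPM and 486 CPM in control and at 175 CPM, 223 CPM and 220 CPM in CD. The fall was 2.15-fold (log2 fold change -1.10, standard error 0.13, adjusted p = 9.99e-05, edgeR), and no library of one group reached the other. SLC3A1 (rBAT), the heavy chain of the cystine and dibasic amino acid exchanger, was at 6.95 CPM, 7.81 CPM and 7.88 CPM in control and at 7.87 CPM, 4.23 CPM and 6.12 CPM in CD. Its groups overlapped, and its log2 fold change of -0.31 had a 95% interval of -0.84 to 0.21 (adjusted p = 0.30, edgeR). SLC7A9, the light chain that pairs with SLC3A1, had no counts in any library.

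Among the light chains, SLC7A6 (y+LAT2), which exports cationic amino acids such as arginine in exchange for glutamine and leucine, was at 207 CPM, 203 CPM and 229 CPM in control and at 78.8 CPM, 64.5 CPM and 51.7 CPM in CD. This was a 3.28-fold reduction (log2 fold change -1.71, standard error 0.16, adjusted p = 1.79e-05, edgeR), with all CD libraries far below the control libraries. SLC7A7 (y+LAT1), its close relative, was near the limit of detection, with 16, 10 and 20 counts in control and 0, 2 and 4 counts in CD. It was called lower (log2 fold change -2.87, standard error 0.60, adjusted p = 0.00308, edgeR), but it passed the filter through the control libraries alone and the size rests on few reads: leaving out CD replicate 1 gave -2.26, and leaving out CD replicate 3 gave -3.89. The log2 ratio of SLC7A6 to SLC3A2 reads was -1.05 ± 0.0414 in control and -1.68 ± 0.478 in CD (SD, n = 3 each). The CD value of replicate 1, -1.154, lay just under the control values and those of replicates 2 and 3, -1.79 and -2.09, farther below (difference -0.62, exact permutation test, two-sided p = 0.1, adjusted 0.15).

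SLC7A6OS matched the rule by its name only. It is a neighbor of SLC7A6 on the opposite strand and no transporter. In the RefSeq annotation of another mink assembly, ASM_NN_V1, both genes overlap. The libraries were made with a kit that does not mark the strand, so reads from the shared stretch cannot be assigned with certainty. SLC7A6OS was at 17.5 CPM, 17.1 CPM and 18.2 CPM in control and at 12.3 CPM, 13.2 CPM and 13.3 CPM in CD, a log2 fold change of -0.44 (standard error 0.15, adjusted p = 0.0298, edgeR). The call is weak: it was lost without any single one of control replicates 1, 2 and 3 and CD replicates 1 and 2, with adjusted p = 0.101, 0.0739, 0.106, 0.0558 and 0.0569 in edgeR.

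SLC7A11 (xCT), the cystine carrier of system xc- that feeds glutathione synthesis, was low in every library. It was at 1.505 CPM, 1.59 CPM and 1.54 CPM in control and at 1.91 CPM, 0.613 CPM and 0.936 CPM in CD, so that CD replicate 1 lay above and the other two below all control libraries. No difference was called (log2 fold change -0.41, 95% interval -1.26 to 0.43, adjusted p = 0.39, edgeR), although without CD replicate 1 the value was -0.99 (adjusted p = 0.0294, edgeR). That value rests on few reads, with 10 and 13 counts in CD replicates 2 and 3. With all 6 libraries the gene passed the filter through the control libraries alone. The ratio of SLC7A11 to SLC3A2 reads differed by 0.52 on the log2 scale (exact permutation test, two-sided p = 0.6, adjusted 0.6) and by -0.03 without CD replicate 1.

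The light chain SLC7A8 (LAT2), which carries large neutral amino acids, had 3, 1 and 8 counts in control and 17, 19 and 5 counts in CD and was not tested. Its CD libraries held 3.38 times the control level, with a 95% interval of 1.74 to 7.06 that covers counting error only, and the groups overlapped. SLC43A2 (LAT4), a carrier of leucine, phenylalanine and methionine that works without a heavy chain, was at 113 CPM, 94.3 CPM and 118 CPM in control and at 85.2 CPM, 98.0 CPM and 78.9 CPM in CD. It was not called (log2 fold change -0.31, 95% interval -0.61 to -0.02, adjusted p = 0.0774, edgeR), but it was called without CD replicate 2 (-0.43, adjusted p = 0.0432) or CD replicate 3 (-0.28, adjusted p = 0.0338). SLC7A4, a relative of the cationic amino acid transporters whose substrate is not established, was at 5.02 CPM, 4.26 CPM and 4.68 CPM in control and 1.66 CPM, 2.33 CPM and 1.80 CPM in CD, a fall of 2.40-fold without overlap (log2 fold change -1.26, standard error 0.22, adjusted p = 0.00110, edgeR).

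The glutamate and aspartate carriers of system X-AG were also lower. SLC1A1 (EAAT3), the widely expressed member that takes up glutamate and cysteine as well, was at 28.3 CPM, 28.4 CPM and 29.97 CPM in control and at 17.8 CPM, 12.9 CPM and 8.07 CPM in CD. The CD libraries differed among themselves by over 2-fold, but all lay under the control libraries (log2 fold change -1.16, standard error 0.24, adjusted p = 0.00317, edgeR). SLC1A6 (EAAT4), best known from cerebellar neurons, was at 8.31 CPM, 8.31 CPM and 8.10 CPM in control and at 2.77 CPM, 2.21 CPM and 3.03 CPM in CD, a 3.09-fold fall without overlap (log2 fold change -1.63, standard error 0.20, adjusted p = 1.16e-04, edgeR). The other carriers of this system were rare. SLC1A3 (EAAT1) had 16 counts in the control libraries and 3 in the CD libraries, SLC1A2 (EAAT2) had 1 and 3, and SLC1A7 (EAAT5) had none.

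**Figure D2:**
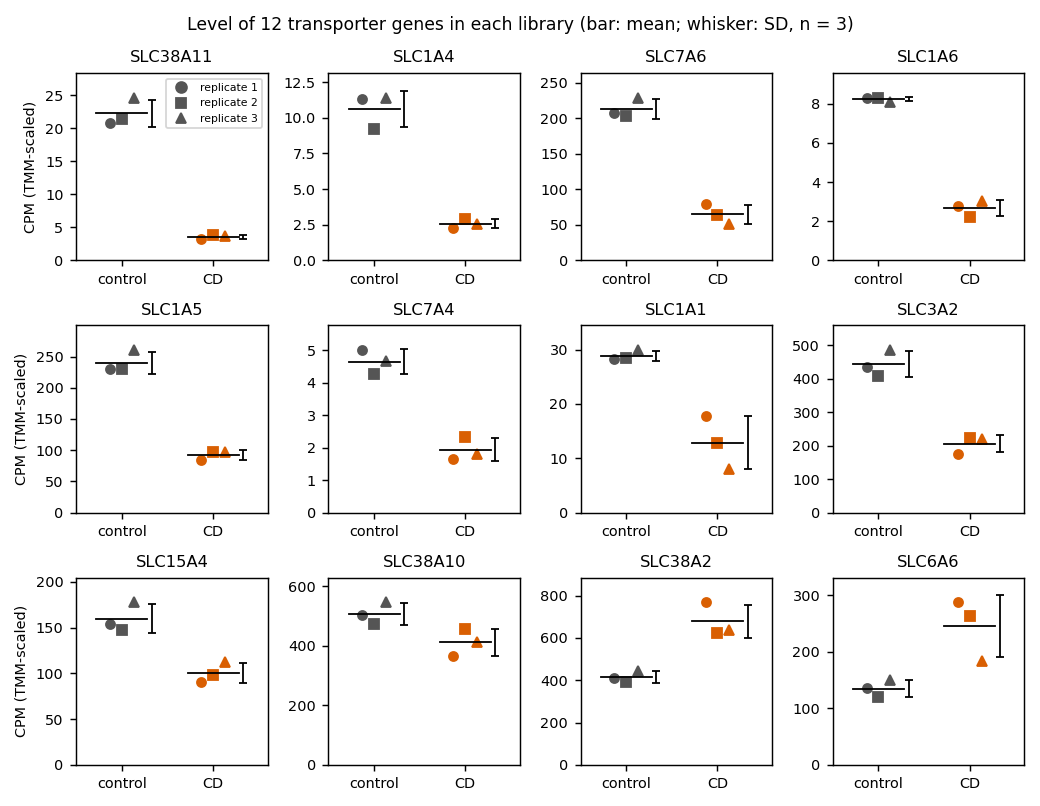
Each panel shows 1 of 12 transporter genes, with TMM-scaled CPM on a y axis that starts at 0 and the control (grey) and CD (orange) libraries on the x axis. Symbols mark replicates 1 to 3, horizontal bars the mean and whiskers the SD of 3 libraries, and the groups overlap in none of the panels, with CD above control for SLC38A2 and SLC6A6.

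The SLC38 family went both ways. SLC38A2 (SNAT2), the sodium-coupled carrier of system A that takes up alanine, glutamine and proline and is known to be induced by amino acid shortage and by hypertonicity, was at 409 CPM, 390 CPM and 444 CPM in control and at 770 CPM, 625 CPM and 640 CPM in CD. It rose 1.64-fold without overlap (log2 fold change 0.71, standard error 0.13, adjusted p = 0.00112, edgeR). SLC38A11, a member whose function is little known, showed the reverse. It was at 20.8 CPM, 21.4 CPM and 24.6 CPM in control and at 3.20 CPM, 3.804 CPM and 3.67 CPM in CD, a 6.25-fold fall with close agreement within each group (log2 fold change -2.64, standard error 0.18, adjusted p = 2.56e-06, edgeR). Its value stayed between -2.56 and -2.73 whichever library was left out.

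SLC38A10, which is found in intracellular membranes, was at 503 CPM, 474 CPM and 548 CPM in control and at 365 CPM, 458 CPM and 413 CPM in CD. The groups did not overlap, but the gene was not called (log2 fold change -0.30, 95% interval -0.58 to -0.03, adjusted p = 0.0684, edgeR). It was called without CD replicate 2 (-0.41, adjusted p = 0.0475), without CD replicate 3 (-0.34, adjusted p = 0.0109) and with total counts (-0.29, adjusted p = 0.0419, all edgeR). SLC38A6 had a log2 fold change of -0.06 with a 95% interval of -0.47 to 0.35. The other members found by symbol had few counts: SLC38A8 had 23 counts in control and 8 in CD, SLC38A5 (SNAT5) 1 and 3, SLC38A4 (SNAT4) 0 and 2, and SLC38A3 (SNAT3) none.

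Of the SLC6 genes found by symbol, those called carry an osmolyte or neurotransmitters and not the protein amino acids. SLC6A6 (TauT), the taurine transporter, which cells use to adjust their osmotic content, was at 135 CPM, 119 CPM and 149 CPM in control and at 288 CPM, 264 CPM and 183 CPM in CD. It rose 1.82-fold (log2 fold change 0.86, standard error 0.17, adjusted p = 0.00226, edgeR), and CD replicate 3 lay nearest to the control libraries. SLC6A11 (GAT3), a GABA transporter of astrocytes, had 15, 13 and 19 counts in control and 2, 3 and 1 counts in CD (log2 fold change -2.91, standard error 0.41, adjusted p = 2.84e-04, edgeR). SLC6A2 (NET), the norepinephrine transporter, had 1, 2 and 9 counts in control and 30, 23 and 13 counts in CD (log2 fold change 2.42, standard error 0.52, adjusted p = 0.00360, edgeR). Both genes lay at the edge of detection and were tested only because the group with more counts passed the filter, so that a difference was built into their selection. SLC6A2, for which control replicate 3 was the highest control library, had a log2 fold change of 3.60 without that library. SLC6A4 (SERT), the serotonin transporter, was below the filter with 1 count in control and 27 counts in CD. The ratio of its levels was 26.7, with a 95% interval for counting error of 4.40 to 1093.

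The SLC6 carriers of amino acids found by symbol did not pass the test, unlike family 6 member 15, whose row carries another symbol and is described further on. SLC6A17 (NTT4), a carrier of neutral amino acids on synaptic vesicles, was at 17.9 CPM, 15.5 CPM and 22.7 CPM in control and at 20.8 CPM, 17.4 CPM and 6.84 CPM in CD. Only CD replicate 3 lay outside the range of the control libraries, and the log2 fold change of -0.31 (95% interval -1.07 to 0.44, adjusted p = 0.47, edgeR) was -0.01 without it. SLC6A20 (SIT1), the proline carrier, had a log2 fold change of -0.49 with a 95% interval of -1.22 to 0.24. It passed the filter through the control libraries alone. The glycine transporters SLC6A9 (GlyT1) and SLC6A5 (GlyT2) had 12 and 0 counts in control and 10 and 2 in CD. SLC6A14, SLC6A18, SLC6A13 and SLC6A16 had no counts in any library, and SLC6A12, the betaine carrier, had 1 count in control and 10 in CD. SLC6A3, SLC6A7 and SLC6A19 had at most 4 counts over all libraries.

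Of the proton-coupled carriers of peptides, those of lysosomes were lower. SLC15A4 (PHT1), which exports histidine and small peptides from endosomes and lysosomes, was at 154 CPM, 148 CPM and 178 CPM in control and at 90.3 CPM, 98.4 CPM and 112 CPM in CD. The groups did not overlap (log2 fold change -0.67, standard error 0.13, adjusted p = 0.00162, edgeR). SLC15A3 (PHT2), its low relative, was at 2.29 CPM, 1.301 CPM and 2.26 CPM in control and at 0.799 CPM, 0.675 CPM and 1.153 CPM in CD. Its call (log2 fold change -1.17, standard error 0.33, adjusted p = 0.0135, edgeR) was lost without control replicate 1, control replicate 3 or CD replicate 2 (adjusted p = 0.0540, 0.0647 and 0.0534, edgeR). SLC15A2 (PEPT2), the peptide carrier of the plasma membrane, had a log2 fold change of 0.48 (95% interval -0.22 to 1.18, adjusted p = 0.23, edgeR) and was called without CD replicate 3 (0.67, adjusted p = 0.0396). SLC15A1 (PEPT1) and SLC15A5 had 1 count each in all libraries together.

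The PAT carriers, which export small neutral amino acids from lysosomes or take them up with protons, showed no common direction among CD libraries. SLC36A1 (PAT1) was at 12.5 CPM, 12.5 CPM and 17.9 CPM in control and at 18.1 CPM, 15.1 CPM and 6.05 CPM in CD (log2 fold change -0.13, 95% interval -0.89 to 0.63, adjusted p = 0.78, edgeR). SLC36A4 (PAT4) was at 8.45 CPM, 7.81 CPM and 8.21 CPM in control and at 14.1 CPM, 5.58 CPM and 5.19 CPM in CD (log2 fold change 0.03, 95% interval -0.75 to 0.80, adjusted p = 0.96, edgeR). CD replicate 1 lay above all control libraries for both genes and CD replicate 3 below them, so the mean of the group does not describe its libraries. Without CD replicate 1, SLC36A4 was called lower, with a log2 fold change of -0.59 (adjusted p = 0.0245, edgeR). SLC36A2 had 1 count and SLC36A3 none.

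The genes with few reads complete the account. Of the 28 genes not tested, 9 had no counts at all, which allows a level of up to 0.165 to 0.217 CPM per library if 3 counts are taken as the limit, for counting error only, and 19 had at least 1 count. Beside those named above, SLC7A10 (Asc-1) had no counts, SLC7A14 had 4 counts, all in CD replicate 3, and SLC43A3, which carries purine bases and not amino acids, had 1 count. When the filter was dropped, 3 of these 19 genes were called by edgeR. They were SLC1A3, which was lower (adjusted p = 0.0421), and SLC6A4 and SLC7A8, which were higher (adjusted p = 4.21e-04 and 0.0169). Of all 17882 genes in that fit, 3168 were called higher and 2840 lower.

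All 54 genes together received 2381 ± 189 CPM in control and 1982 ± 101 CPM in CD (SD, n = 3 each), and their make-up shifted. SLC38A2 took 17.4% ± 0.236 of the reads on these genes in control and 34.2% ± 3.30 in CD (SD, n = 3 each), and SLC6A6 took 5.64% ± 0.226 and 12.3% ± 2.20. The share of SLC3A2 went from 18.6% ± 0.169 to 10.4% ± 1.70, that of SLC1A5 from 10.1% ± 0.264 to 4.68% ± 0.553 and that of SLC7A6 from 8.96% ± 0.195 to 3.26% ± 0.538. For each of these 5 genes, chosen after their values were seen, the shares of the groups did not overlap. The levels of the groups did not overlap for 58% of all genes tested either. SLC38A10 held 21.3% ± 0.151 and 20.8% ± 2.67, and its groups overlapped.

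**Figure D3:**
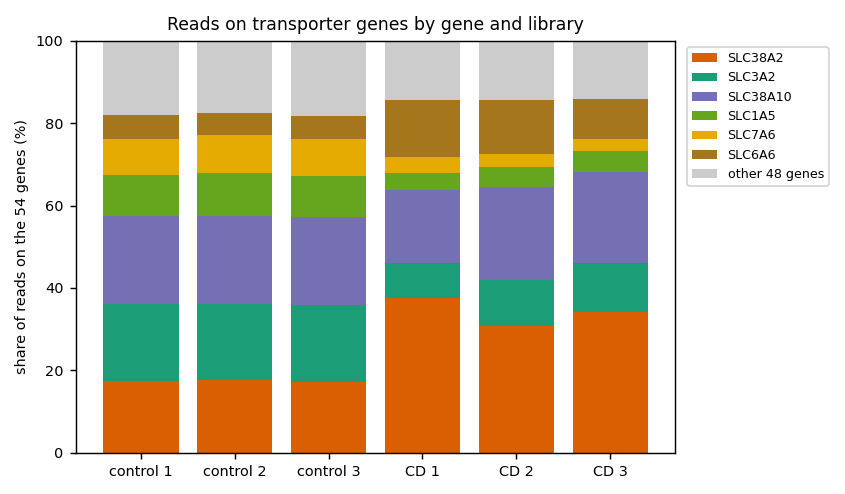
Stacked bars give, for each control and CD library on the x axis, the share in percent of the reads on the 54 transporter genes that fell on each of 6 genes and on the others together. The share of SLC38A2 (orange, at the bottom) is 17.2% to 17.6% in the control libraries and 30.9% to 37.5% in the CD libraries.

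The rule on symbols missed transporters of the same families whose rows carry another symbol. By their descriptions in the table there are 5 such rows, which were noticed after the values had been seen and are not counted among the 54. The row of solute carrier family 7 member 1, the cationic amino acid transporter CAT1 of system y+, was at 158 CPM, 136 CPM and 193 CPM in control and at 76.6 CPM, 55.5 CPM and 28.7 CPM in CD (listed as CTR1, log2 fold change -1.60, standard error 0.29, adjusted p = 0.00145, edgeR). It was lower in all CD libraries. The row of family 6 member 15, a carrier of branched-chain amino acids, had a log2 fold change of -1.88 (listed as S6A15, standard error 0.17, adjusted p = 1.97e-05, edgeR), and that of family 38 member 7, a lysosomal glutamine exporter, one of -0.51 (listed as S38A7, standard error 0.14, adjusted p = 0.0132, edgeR). The call of S38A7 was lost without control replicate 3 (adjusted p = 0.0736, edgeR). The rows of SNAT1 and LAT3, listed as S38A1 and LAT3, were below the filter, and the former had 4 counts in all. SLC7A5 (LAT1), SLC7A2, SLC7A3 and SLC6A8 were not matched to a row and were not analysed here. SLC38A9, the lysosomal arginine sensor left out by the rule, had a log2 fold change of 0.02 (standard error 0.16, adjusted p = 0.93, edgeR).

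Genes of amino acid metabolism were examined beside the transporters as 5 lists. Some listed genes matched no row by symbol, so the lists cover parts of their pathways. Rows were found for 14 of 18 genes of the ATF4 list, 18 of 20 synthetases and 5 of 10 glutathione genes. For other carriers and partners they were found for 12 of 14 genes, and for glutamine and glutamate enzymes for 7 of 11. Of 14 tested genes that answer to ATF4 or respond to amino acid shortage, 2 were higher and 8 lower (median -0.81 on the log2 scale), or 14.3% and 57.1% beside 24.8% and 22.9% of all genes. The number of higher genes was 1 without control replicate 1 or without control replicate 2. ATF3, a stress-induced transcription factor, rose from between 44.7 CPM and 49.3 CPM in control to between 551 CPM and 608 CPM in CD (log2 fold change 3.66, standard error 0.12, adjusted p = 7.93e-08, edgeR). The lower genes of the list were all enzymes, whereas PSPH, an enzyme of serine synthesis, was not called (log2 fold change 0.24, adjusted p = 0.32, edgeR). PSAT1, of the same pathway, went from between 42.0 CPM and 43.7 CPM to between 7.50 CPM and 7.79 CPM (log2 fold change -2.48, standard error 0.14, adjusted p = 7.81e-07, edgeR). ASNS, the asparagine synthetase, had a log2 fold change of -1.39 (standard error 0.12, adjusted p = 1.31e-05, edgeR), and CHAC1, which degrades glutathione, one of -1.37 (standard error 0.25, adjusted p = 0.00133, edgeR). ATF4 itself, named here after its values were seen, was not called (log2 fold change 0.36, standard error 0.14, adjusted p = 0.0594, edgeR), but it was called higher without CD replicate 1 (0.47, adjusted p = 0.0172), with upper quartile scaling (adjusted p = 0.0366), with total counts (adjusted p = 0.0294) and without the filter on low counts (adjusted p = 0.0493, all edgeR).

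Of 18 aminoacyl-tRNA synthetases of the cytosol, which load amino acids onto tRNA, 11 were lower and 2 higher (median -0.39), or 61.1% and 11.1% beside 22.9% and 24.8% of all genes. The largest changes were those of VARS1 (-1.49), FARSA (-1.21) and MARS1 (-1.13) in the downward direction and of NARS1 (0.95) in the upward direction. The number of lower synthetases was 6 without control replicate 1. Of 5 glutathione genes tested, CHAC1 and GCLC (-0.77), the catalytic subunit of the first enzyme, were lower and OPLAH (0.43) was higher. These are 60% of the list, beside 47.7% of all genes. The call of OPLAH was lost without control replicate 1, control replicate 2 or CD replicate 2.

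Of 7 genes of glutamine and glutamate metabolism, 3 were higher and 3 lower (median 0.40), so 85.7% were called beside 47.7% of all genes. GLUL, which makes glutamine from glutamate, was between 55.1 CPM and 63.7 CPM in control and between 115 CPM and 160 CPM in CD (log2 fold change 1.23, standard error 0.14, adjusted p = 8.01e-05, edgeR). ASS1, of arginine synthesis, was lower (-1.14, adjusted p = 1.41e-04), as was the aspartate aminotransferase GOT1 (-0.56, adjusted p = 0.00219, both edgeR). Of 8 tested carriers and partner proteins outside the families of the rule, 3 were lower and 1 higher (median 0.06). The share called, 50%, was close to the 47.7% of all genes. SLC16A10 (TAT1), the carrier of aromatic amino acids, had a log2 fold change of -1.06, the lysosomal cystine exporter CTNS one of -0.77 and MFSD12, which brings cysteine into lysosomes, one of -0.65. NEDD4L, a ubiquitin ligase for transporters, was the higher gene (0.69, adjusted p = 0.0154, edgeR), and it was not called without any single one of the control libraries or without CD replicate 2.

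**Figure D4:**
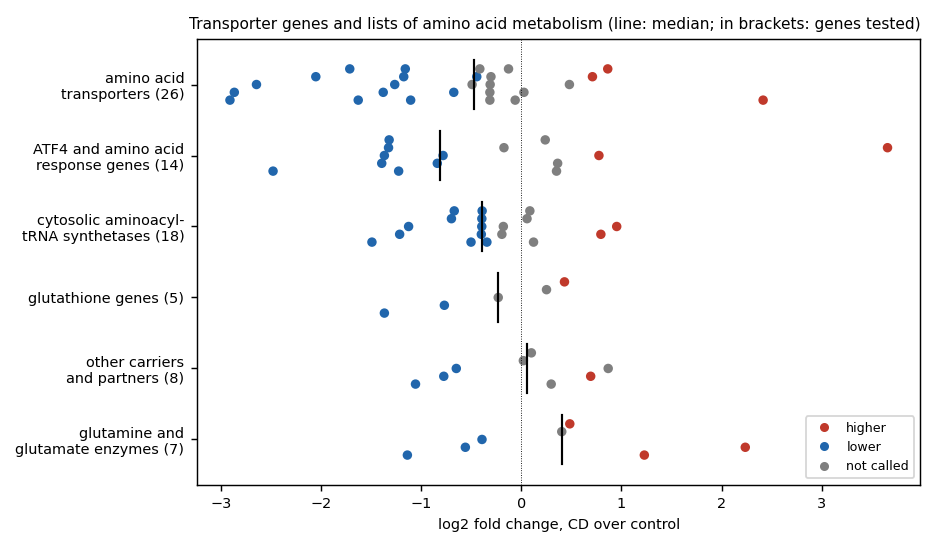
Each point is 1 tested gene, placed by its log2 fold change of CD over control on the x axis and by its list on the y axis, with the number of genes tested in brackets. Red points are higher, blue points lower and grey points not called, and black lines are medians, which lie at -0.47 for the transporters and at -0.81 for the genes that answer to ATF4.

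Leaving out each library in turn moved the fold changes of low genes and of genes that differ between CD libraries more than those of the others. Of the 13 lower genes, 11 were called in every alternative setting in which they were tested, the exceptions being SLC15A3 and SLC7A6OS. The 3 higher ones were called in each such setting as well. SLC7A7, SLC6A11 and SLC6A2, counted among these, had passed the filter through 1 group alone. They were not tested with the filter of at least 50 counts in 3 libraries. All settings use the same reads. Over the 6 fits that left out 1 library, the number of lower genes was between 11 and 15 and that of higher ones between 3 and 5, the last without CD replicate 3. Over all genes the same fits gave between 2194 and 3606 lower genes and between 2216 and 3616 higher ones. Both numbers were largest without CD replicate 3.

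**Figure D5:**
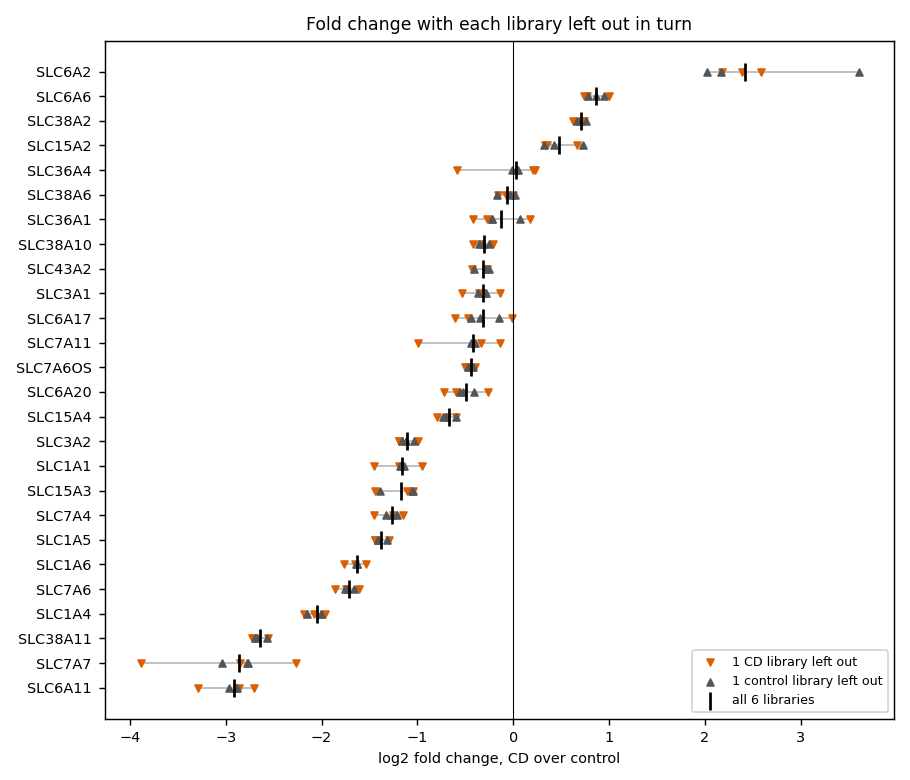
The x axis gives the log2 fold change of CD over control for each of the 26 transporter genes tested (y axis), with all 6 libraries (vertical bar) and with 1 control (grey) or 1 CD library (orange) left out. The points of SLC36A4 spread from -0.59 to 0.23 across 0, whereas those of SLC38A11 stay between -2.56 and -2.73.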

How the data were processed

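Poly(A) RNA of Mv1Lu cells was sequenced as 3 control and 3 CD Nextera XT libraries. Per the paper and the submitters' processing notes, reads were trimmed with fastp 0.20.1, aligned to the mink assembly NNQGG.v01 with STAR 2.7.2a and compared with DESeq2 1.30.1 in R 4.0.3. The program that counted reads per gene and its strand setting are not given in the sources used here. The authors deposited raw counts, which were used. Their normalized expression files were not used. The rows of reads without a gene, 29.3% to 47.2% of a library, were left out of library sizes.

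Counts were tested with edgeR 4.0.16 in R 4.3.3 (TMM, robust glmQLFit and glmQLFTest, condition as the only term, all 6 libraries, filterByExpr with a minimum count of 10 and a minimum total of 15). P-values were adjusted by Benjamini-Hochberg over 12148 genes and called at 0.05. The standard error is the log2 fold change divided by the root of F (median 0.21 over the transporters tested), and 95% intervals use the moderated degrees of freedom. Intervals of count ratios are exact (Clopper-Pearson) and cover counting error only. The script was tested on simulated data.

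Alternatives were DESeq2 1.42.0, limma 3.58.1 (voom), other scalings, other filters, an adjusted p of 0.01, a replicate block and leaving out each library. Every tested member is named, and some genes that the rule would name are not reported here; levels per library are given for members called with at least a 2-fold change, the SLC3 genes and the member with most reads in each system; of each other list, the 4 called genes with the largest change are named. ATF4, PSPH, SLC38A9, the rows outside the rule and the genes in the plot of read shares were chosen after their values were seen. The members, systems and lists were chosen with earlier results of these data known. No sequences are given, since the reference used here, a RefSeq gene table of the assembly ASM_NN_V1, holds gene names and positions but no sequence.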

Additional observations from a re-analysis of the deposited data

How the results depend on the processing

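The 13 lower and 3 higher genes of the transporter families numbered 13 and 3 with DESeq2, voom, DESeq2 size factors and upper quartile scaling, and 14 and 3 with total counts. Without the filter on low counts 5 genes were higher and the median log2 fold change over 45 genes was -0.31. With each library left out, the higher genes numbered 3 to 5 and the median lay between -0.66 and -0.36. At an adjusted p of 0.01, 2006 of all genes were higher, and the counts were 1 higher for ATF4 genes, 7 lower for synthetases, and 0 higher each for glutathione genes and for other carriers. With each library left out, these 4 counts ranged from 1 to 3, 6 to 11, 0 to 2 and 0 to 2.

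The sign of 3 of these genes that were not called changed. SLC36A4 had a log2 fold change of -0.0059 with DESeq2, -0.12 with voom, -0.0028 with DESeq2 size factors and -0.12 with the replicate block, and -0.59 to 0.23 with each library left out. SLC38A6 lay between -0.17 and 0.018 and SLC36A1 between -0.42 and 0.17 with each library left out. SLC38A9, not called either, lay between -0.047 and 0.072. The difference in the log2 ratio of SLC7A11 to SLC3A2 lay between -0.031 and 0.96. The causes were not tested.

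With the replicate number as a block, 12 of these genes were lower and 3 higher, and the call of SLC7A6OS was lost (adjusted p = 0.106, edgeR). Deviations of same-numbered libraries had correlations of -0.02, -0.33 and -0.18 across genes, and those of the other pairs lay between -0.02 and 0.26. Deviations are taken from the mean of each group of 3, so these values depend on one another. Whether the numbers pair the libraries cannot be told from them. Among the 54 genes, depth limits those with a mean under about 1 CPM in either group. These are SLC7A7, SLC6A2, SLC6A11, SLC15A3, SLC6A20 and the 28 not tested. SLC7A11 was under 1 CPM in CD replicates 2 and 3. The promoter motif counts and the ratios of SLC7A5, SLC7A7, SLC7A8 and SLC38A1 to their partners were not run, for want of promoter sequences, a matched row or enough reads.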
